A study of Trichoderma reesei RUT C-30 with 16 samples.

Results

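The strain comparison in lactose without DTT (dithiothreitol), the condition called LC, covered 4 of the 16 libraries of the series, which were chosen by their labels alone. On one side were 2 fed-batch cultures of Δ*res2*, and on the other 2 of its parent Rut-C30. Rut-C30 is a hypersecreting mutant of the filamentous fungus *Trichoderma reesei*, obtained from the isolate QM6a by random mutagenesis and carrying a truncated *cre1*, the gene of the carbon catabolite repressor. In Δ*res2* a hygromycin resistance cassette replaces *res2* in the Rut-C30 background, and the cultures came from 1 representative transformant, so that an effect of the deletion and a property of that clone cannot be told apart. Every culture was grown in a batch phase on glucose and then fed, with lactose (L) or glucose (G), and received 10 mM DTT for 2 h (D) or none (C). The 4 lactose cultures with DTT (LD) entered the same fit as the LC cultures, and the 8 glucose cultures were fitted on their own. RNA was taken from mycelium, and each group held 2 separate cultures.

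Lactose is a soluble inducer, on which *T. reesei* makes large amounts of secreted cellulases and hemicellulases, whose genes are driven by the activator XYR1. The secreted enzymes are folded in the endoplasmic reticulum (ER), where an excess of unfolded protein calls on chaperones such as BIP1 in the unfolded protein response. RES2 is a transcription factor whose counterpart in the fungus *Neurospora crassa* is known to affect the secretion of such enzymes. The comparison in LC asks which transcripts depend on *res2* while the fungus secretes under induction alone, without a chemical that disturbs protein folding.

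The LC libraries held between 25377536 and 29623685 counts. The main cellobiohydrolase gene *cel7a* took 8.04% and 7.52% of all counts in Δ*res2* and 7.93% and 10.4% in Rut-C30. The hydrophobin gene *hfb2* (TrC1130C), which is abundant in conidiating cultures, had 59138 and 73617 normalized counts in Δ*res2*, against 119787 and 66108 in Rut-C30, and its groups overlapped. Here a normalized count is a read count scaled by edgeR's TMM factors to the mean library size of the 8 lactose libraries. The duplicates of Δ*res2* differed by a median of 0.0936 on the log2 scale over genes, and those of Rut-C30 by 0.140. The chi-square of the raw counts of each pair, per degree of freedom, was 7.73 in Δ*res2* and 43.2 in Rut-C30. In LD it was 12.9 in Δ*res2* and 11.9 in Rut-C30. The fit estimated the spread of a gene over all lactose groups together. Rut-C30 replicate 2 stood on the Δ*res2* side of replicate 1 for 541 of the 710 genes called higher in Δ*res2* (76.2%) and for 355 of the 528 called lower (67.2%). Over all genes tested, replicate 2 was above replicate 1 in 52.1%. The part of this shift in the results was not tested, but the counts without each library are given below.

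The count tables do not name *res2*. TrA1112W, on the forward strand of chromosome I (QM6a assembly, 3588003 to 3589547), was the only gene with at least 100 counts in every Rut-C30 library and at most 3 in every Δ*res2* library, and it was taken as *res2* on these counts. In LC it had 1 and 2 counts in Δ*res2*, against 3802 and 3177 in Rut-C30. After scaling, Δ*res2* held 0.0509% of the Rut-C30 level, with an exact 95% interval of 0.0105 to 0.149% that covers counting error only. Since the gene was picked by these counts, they are no separate check of the strain labels.

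The gene next to *res2* was the most strongly reduced of all others that passed the test at a mean of 100 or more normalized counts. TrA1113C, on the reverse strand at 3590959 to 3593313, lies 1411 bases beyond the end of the *res2* model and is transcribed toward it. It had 1106 and 1092 normalized counts in Δ*res2*, against 4417 and 4126 in Rut-C30. All 4 values were tight within their strain. Its log2 fold change (Δ*res2* over Rut-C30) was -1.96 ± 0.07 (SE, n = 2 each, edgeR adjusted p = 4.0e-10). With DTT the reduction was smaller, at -0.90 ± 0.07, and the difference between both conditions passed its own test (edgeR adjusted p = 6.2e-05). The next gene, TrA1114W, changed by -0.27 ± 0.08, and on the other side of *res2* TrA1111C was not called (-0.09 ± 0.08). The share of the cassette, of the altered locus and of the missing protein in the reduction of TrA1113C was not tested.

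Beyond the locus, the deletion was accompanied by many changes of modest size, and the larger ones were mostly increases. Of 8889 genes tested, 710 were higher (7.99% of those tested) and 528 lower (5.94%) in Δ*res2* at an edgeR adjusted p under 0.05. The median change was 0.60 on the log2 scale among the genes called higher, a 1.52-fold increase, and -0.37 among those called lower. The median over all genes tested was -0.04, and 42% of them had a positive value. Beyond a log2 fold change of 1, 161 genes were higher (1.81% of those tested) and 22 lower (0.247%). At an unadjusted p under 0.05 there were 2496 genes (28.1%). By the stricter limits of the study (false discovery rate below 0.005, more than 4-fold, and on average no fewer than 100 counts) 12 genes were left (0.135%), of which 11 were higher and 1, *res2*, lower. In every called gene both Δ*res2* values lay on one side of both Rut-C30 values, a separation that 23.4% of all genes showed upward and 33.8% downward. The called-higher genes took 27.5% and 27.6% of all counts in Δ*res2*, against 17.6% and 18.1% in Rut-C30, values that describe the selection and carry no test.

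**Figure D1:**
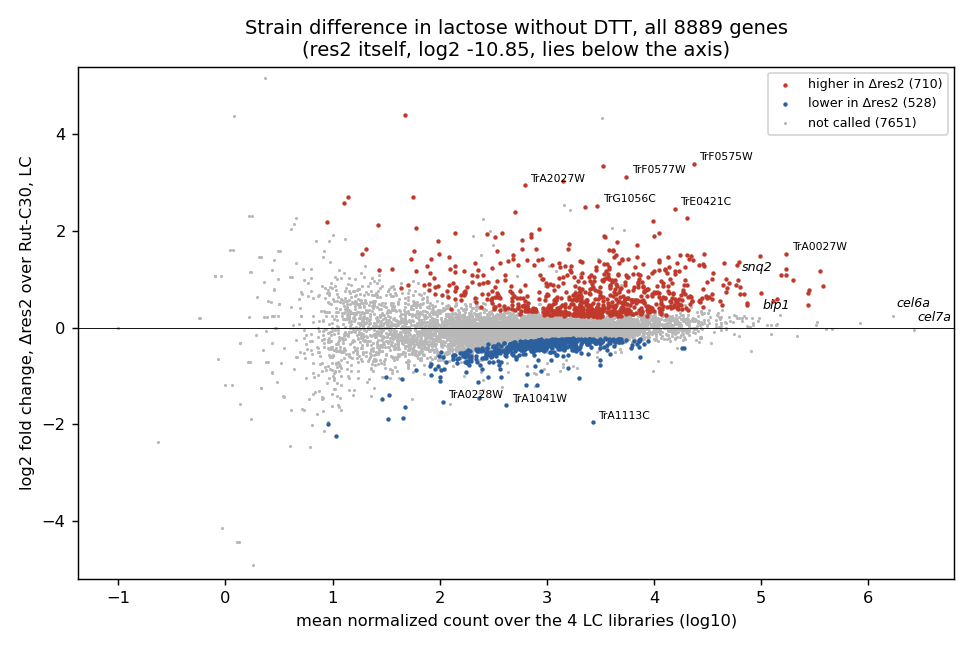
Log2 fold change in LC (Δres2 over Rut-C30, vertical axis) against the mean normalized count over the 4 LC libraries (log10, horizontal axis), with 1 point for each of 8889 genes. The 710 genes higher in Δres2 reach further from 0 than the 528 lower ones, while cel7a and cel6a, at the far right, stay near 0.

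The balance of both directions depended on which libraries set the scaling and the fit. With the 4 LC libraries fitted alone, which changes the scaling, the genes that pass the filter and the estimate of the spread together, 685 genes were higher and 217 lower, so that 75.9% of the calls were increases, against 57.4% with the LD libraries included. When only the scaling was changed, with TMM factors computed among the LC libraries, 801 were higher and 361 lower (68.9% increases). Leaving out Δ*res2* replicate 1 or 2 gave 458 or 451 genes higher and 133 or 124 lower, and leaving out Rut-C30 replicate 1 or 2 gave 535 or 926 higher and 266 or 730 lower. Over 11 alternatives within the lactose libraries, 382 genes were called higher each time (4.3% of those tested) and 59 lower (0.664%).

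The 4 largest called increases at a mean of 100 or more normalized counts came from a single short stretch of chromosome VI. TrF0575W, TrF0576W, TrF0577W and TrF0579W lie in a row on the forward strand between 2092099 and 2097580, and none of them carries a gene name in the sources used here. TrF0575W had 42530 and 43605 normalized counts in Δ*res2*, against 3190 and 5037 in Rut-C30. Its log2 fold change was 3.39 ± 0.18 (SE, n = 2 each), a 10.5-fold difference (edgeR adjusted p = 5.8e-07). TrF0576W had 6001 and 6214 in Δ*res2*, against 454 and 766 in Rut-C30, a log2 fold change of 3.33 ± 0.23. For TrF0577W the values were 9620 and 10139 in Δ*res2* and 962 and 1318 in Rut-C30 (3.12 ± 0.13). TrF0579W reached 2638 and 2437 in Δ*res2* and 258 and 371 in Rut-C30 (3.03 ± 0.21). The Rut-C30 values of all 4 genes were low in both cultures, and the higher of them, in replicate 2, stayed well below both Δ*res2* values.

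The genes on either side of this row were not called in LC. TrF0574W, 7804 bases before it, had a log2 fold change of 0.12 ± 0.09 (edgeR adjusted p = 0.45), and TrF0580W, 3319 bases after it, one of 0.80 ± 0.26 that was not called (edgeR adjusted p = 0.11). The models of TrF0576W and TrF0577W are only 171 and 207 bases long and sit 248 and 318 bases from their neighbours, so whether all 4 are separate transcripts was not tested. With DTT all 4 genes were also higher in Δ*res2*, and in 3 of them by less than without. TrF0575W, TrF0576W and TrF0577W had log2 fold changes of 1.26 ± 0.17, 1.29 ± 0.20 and 1.30 ± 0.12 in LD, and each of these differed from the LC value (edgeR adjusted p = 0.0012, 0.016 and 9.8e-05). In TrF0579W the LD value was 1.83 ± 0.22, and the difference was not called (edgeR adjusted p = 0.11).

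**Figure D2:**
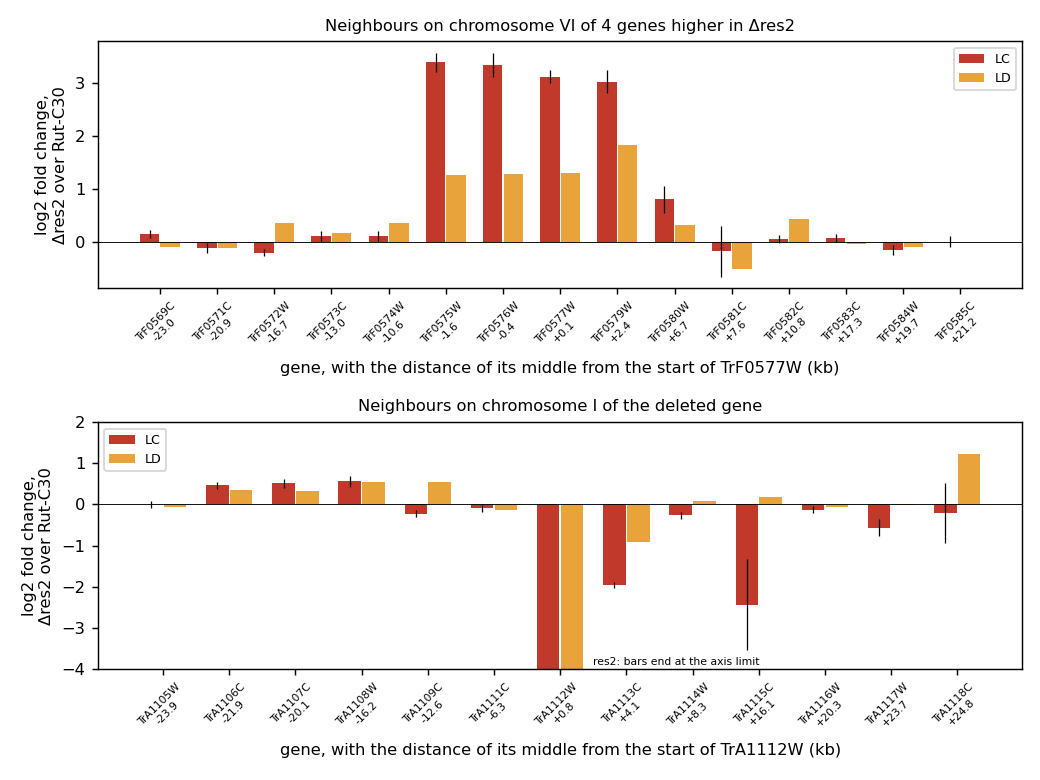
Log2 fold change (Δres2 over Rut-C30) of neighbouring genes in LC (red, with the standard error) and LD (orange), each gene labelled with the distance of its middle in kb from the start of TrF0577W (top) or of res2 (bottom). In the top panel 4 adjacent genes stand near 3 in LC and between 1.26 and 1.83 in LD, and in the bottom panel TrA1113C, beside res2, stands at -1.96 in LC and -0.90 in LD.

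Another 8 genes completed the 12 largest increases. TrA2027W (chromosome I) had 1281 and 910 normalized counts in Δ*res2*, against 136 and 150 in Rut-C30, a log2 fold change of 2.95 ± 0.16. In LD it was 1.36 ± 0.12, and the difference between the conditions was called (edgeR adjusted p = 0.0011). TrG1056C (chromosome VII) had 4897 and 5152 in Δ*res2* and 825 and 929 in Rut-C30 (2.52 ± 0.11). TrA0060C (chromosome I) had 3991 and 3729 in Δ*res2* and 612 and 766 in Rut-C30 (2.49 ± 0.14). These 2 genes kept nearly the same size with DTT, at 2.29 ± 0.12 and 2.16 ± 0.14.

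TrB1343C is the one gene among the 12 with an assigned process in the sources used here. This is N-acetylglucosamine metabolism, by which fungi use the building block of chitin. Processes were known only for genes the study had annotated as differentially expressed, and several of the 12 were not among these. TrB1343C lies on chromosome II. It had 853 and 849 normalized counts in Δ*res2*, against 199 and 120 in Rut-C30, a log2 fold change of 2.39 ± 0.18. TrE0502W (chromosome V) had 17057 and 15237 in Δ*res2* and 3040 and 3948 in Rut-C30 (2.21 ± 0.16). TrA0224W (chromosome I) had 32286 and 35532 in Δ*res2* and 5409 and 8703 in Rut-C30 (2.27 ± 0.19). TrB0305W (chromosome II) had 1514 and 1170 in Δ*res2* and 308 and 348 in Rut-C30 (2.04 ± 0.15), and in LD only 0.44 ± 0.13, a difference that was called (edgeR adjusted p = 0.0023).

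TrE0421C (chromosome V) was the least settled of the 12. It had 25554 and 27119 normalized counts in Δ*res2*, against 2781 and 6842 in Rut-C30, so that the Rut-C30 cultures stood further apart, as a ratio, than in the other 11. Its log2 fold change was 2.46 ± 0.46 (edgeR adjusted p = 0.039), and it lost its call with the 4 LC libraries alone (edgeR adjusted p = 0.15) and without either Δ*res2* library (edgeR adjusted p = 0.14 and 0.15). The other 11 were called higher under all 11 alternatives within the lactose libraries.

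**Figure D3:**
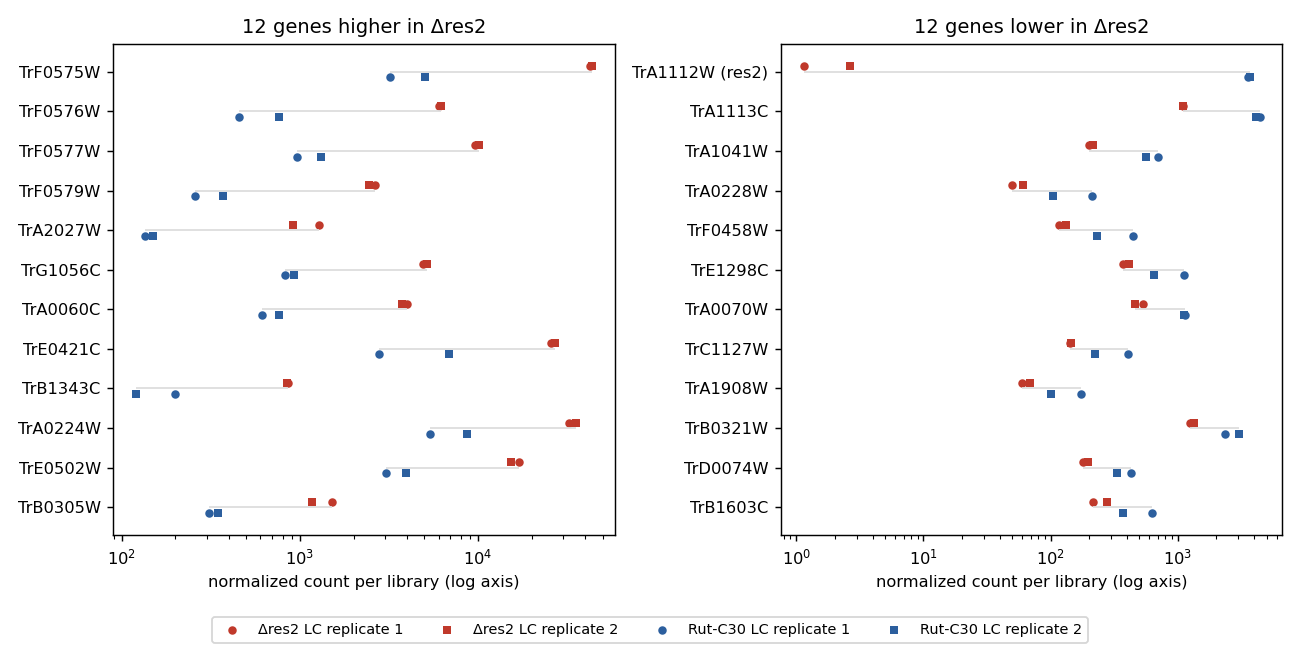
Normalized count of each LC library (log axis) for the 12 genes with the largest increase (left) and the 12 with the largest decrease (right), Δres2 in red and Rut-C30 in blue, circles for replicate 1 and squares for replicate 2. Red and blue never overlap in these genes, and the blue pairs are often further apart than the red pairs, as in TrE0421C at 2781 and 6842.

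Decreases were smaller, and fewer of them were stable. Besides *res2* and TrA1113C, TrA1041W (chromosome I) had 200 and 215 normalized counts in Δ*res2*, against 697 and 561 in Rut-C30, a log2 fold change of -1.61 ± 0.12 (edgeR adjusted p = 2.9e-07). TrA0070W (chromosome I) had 531 and 459 in Δ*res2* and 1144 and 1115 in Rut-C30 (-1.19 ± 0.10). TrB0321W (chromosome II) had 1260 and 1350 in Δ*res2* and 2366 and 3046 in Rut-C30 (-1.05 ± 0.10). These 3 genes also fell in LD, with log2 fold changes between -1.02 and -0.59. TrD0074W (chromosome IV) had 179 and 196 in Δ*res2* and 430 and 334 in Rut-C30 (-1.03 ± 0.17), and in LD it was not called.

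The other 6 of the 12 largest decreases were TrA0228W, TrF0458W, TrE1298C, TrC1127W, TrA1908W and TrB1603C, with log2 fold changes between -1.54 and -1.03. In all 6, Rut-C30 replicate 1 stood far above replicate 2. TrF0458W, for example, had 117 and 133 normalized counts in Δ*res2* and 444 and 234 in Rut-C30. Each of these 6 lost its call under at least 1 alternative within the lactose libraries, all 6 without Δ*res2* replicate 1, 5 without Δ*res2* replicate 2 and 3 without Rut-C30 replicate 1, and none was called in LD.

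Further genes called higher lay beside each other along the chromosomes. With genes in their annotated order, 30 runs of at least 3 neighbours called in one direction were found, 26 of them higher and 4 lower, and 8 runs held 4 genes, all of these higher. On chromosome V, TrE0499C, TrE0500W, TrE0501C and TrE0502W had log2 fold changes of 0.51, 1.31, 1.42 and 2.21. On chromosome II, TrB0304C, TrB0305W and TrB0306W had 1.88, 2.04 and 1.11, and on the same chromosome TrB0825C, TrB0826W, TrB0827W and TrB0828C had 1.46, 1.31, 1.05 and 0.69. On chromosome III, TrC0772W, TrC0773W, TrC0774W and TrC0775W had 1.25, 1.08, 1.16 and 0.50. One of the runs that fell was that of *res2*, TrA1113C and TrA1114W. Runs are a description, since no expected number was computed. By chromosome, the share called higher lay between 6.67% (VII) and 8.78% (V), and the share called lower between 5.04% (VI) and 6.88% (VII).

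The genes of plant cell wall degradation, the main product of the lactose culture, were not called by edgeR with the 8 lactose libraries, apart from 1 gene. None of 12 cellulase genes and none of 12 hemicellulase genes was called by edgeR or by DESeq2, with 0 of the 24 below 0.05 even before adjustment of the edgeR p-values. Of 8 β-glucosidase genes, *cel3c* (TrD1398C) alone was called lower, by 0.28 on the log2 scale, with 6750 and 6263 normalized counts in Δ*res2* and 7612 and 8156 in Rut-C30 (edgeR adjusted p = 0.027). Its call was lost when Rut-C30 replicate 2 or either Δ*res2* library was left out, and with the 4 LC libraries fitted alone. *bgl3j* (TrA1187C), at 0.34 on the log2 scale, missed the call (edgeR adjusted p = 0.052), but DESeq2 called it higher (adjusted p = 0.032). In edgeR, 1 of the 8 β-glucosidase genes was called higher without the filter, with a replicate block and with TMM among the LC libraries alone. Without robust estimation 2 were called lower. Among the cellulase and hemicellulase genes, single calls appeared when a Rut-C30 library was left out. Without replicate 1, *cip1* (TrE0670C) and *agl3* (TrG0880C) were called lower, and without replicate 2, *abf1* (TrD0008W) and *glr1* (TrE0434C) higher. The median of the cellulase list was -0.18 without the first of these libraries and 0.16 without the second. The medians of the lists were -0.03, 0.03 and 0.02, beside -0.04 over all genes tested.

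The precision of these values can be read from their intervals. The cellobiohydrolase gene *cel7a* (TrG0022C) had 2733225 and 2531154 normalized counts in Δ*res2*, and in Rut-C30 2185214 and 3251926. The Rut-C30 values lay on both sides of those of Δ*res2*, and the log2 fold change was -0.05, with a 95% interval of -0.46 to 0.36. For the other cellobiohydrolase gene, *cel6a* (TrG1206C), it was 0.24, with an interval of -0.15 to 0.64. Of the 32 genes of these lists, 31 had an interval within a log2 fold change of 1 in either direction, and the exception was *cel3b* (TrF1016C), at -0.66 with an interval of -1.29 to -0.04.

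Neither the activators of these genes nor the markers of ER stress were called. *xyr1* (TrC0438W), the main activator, had 119612 and 113365 normalized counts in Δ*res2*, against 104074 and 119999 in Rut-C30, and a log2 fold change of 0.06 with an interval of -0.19 to 0.30. The lactose permease gene *crt1*, the activator gene *ace3*, the repressor gene *ace1* and *vib1* lay between -0.26 and 0.10, and 2 of these 5 regulators had an unadjusted p under 0.05. *vib1* (TrE0539W), at -0.26 ± 0.08, came nearest to a call (edgeR adjusted p = 0.056), and it was called lower without the filter on low counts and without Rut-C30 replicate 1. The ER chaperone gene *bip1* (TrG0399C) had 103656 and 98566 normalized counts in Δ*res2* and 73056 and 102201 in Rut-C30. The groups overlapped, at a log2 fold change of 0.21 with an interval of -0.12 to 0.54. Protein disulfide isomerase gene *pdi1*, and *hrd1* and *lcl2* of ER-associated degradation, lay between 0.01 and 0.09, and 0 of the 4 markers had an unadjusted p under 0.05 in edgeR or a call by DESeq2. Without Rut-C30 replicate 2, *bip1* and *pdi1* were called higher.

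**Figure D4:**
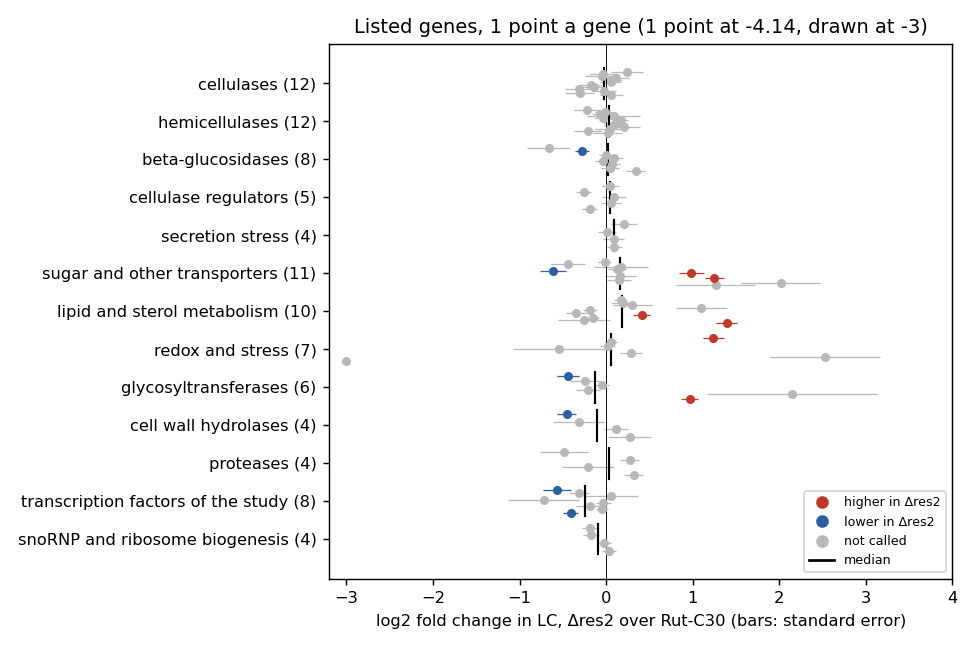
Log2 fold change in LC (Δres2 over Rut-C30, horizontal axis, bars for the standard error) of the genes of 13 lists, with 1 point a gene, the list median as a black line, and called genes in red (higher) or blue (lower). The 12 cellulase and 12 hemicellulase genes are all grey and near 0. Red points are 2 of 11 transporters, 2 of 10 lipid genes, 1 of 7 redox genes and 1 of 6 glycosyltransferases, beside 7.99% of all genes tested. The study had listed these red genes for a rise in Δres2 alone in these samples, so the shares carry no test. Blue points lie among the transporters, glycosyltransferases, β-glucosidases, cell wall hydrolases and transcription factors.

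Among the transporters, 2 of 11 genes were higher and 1 was lower in Δ*res2*, beside 7.99% and 5.94% of all genes tested, with a list median of 0.17. The study had listed both higher genes as rising on lactose in Δ*res2* alone, from comparisons that include the Δ*res2* LC cultures. Their share therefore carries no test. The MFS (major facilitator superfamily) transporter gene TrB0334W had 9809 and 9059 normalized counts in Δ*res2*, against 3417 and 4508 in Rut-C30, and a log2 fold change of 1.25 ± 0.11 (edgeR adjusted p = 1.35e-06). *snq2* (TrB1077C), named for a yeast ABC transporter that exports toxic compounds, had 77159 and 84392 in Δ*res2* and 33235 and 48364 in Rut-C30 (0.99 ± 0.14, edgeR adjusted p = 0.00026). The oligopeptide transporter gene *opt2* (TrC1163C) was lower, with 231 and 245 in Δ*res2* and 405 and 323 in Rut-C30 (-0.62 ± 0.15), and its call was lost without Rut-C30 replicate 1 and without either Δ*res2* library. The sugar transporter genes *str1* and *xlt1* had log2 fold changes of 0.13 and -0.02 and were not called.

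Of 10 lipid and sterol genes, 2 were higher (20%) and none lower, beside 7.99% and 5.94% of all genes tested, with a median of 0.18. DESeq2 called 3 of them higher and 1 lower. The 2 genes that edgeR called had been listed by the study for a rise in Δ*res2* alone in these samples. Their share therefore carries no test. TrA1225C, annotated as a putative phospholipid translocation protein, had 16787 and 15428 normalized counts in Δ*res2*, against 5333 and 6947 in Rut-C30. Its log2 fold change of 1.39 ± 0.12 (edgeR adjusted p = 7.1e-07) was the largest among the called genes of the lists. *ept1* (TrC1107C), a putative ethanolaminephosphotransferase of membrane lipid synthesis, reached 3350 and 3368 in Δ*res2* and 2243 and 2818 in Rut-C30 (0.41 ± 0.10). Without Rut-C30 replicate 1 or either Δ*res2* library it was not called.

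In the redox and stress list 1 of 7 genes was called, a zinc-binding alcohol dehydrogenase gene (TrF1026C) with 429 and 428 normalized counts in Δ*res2*, against 172 and 192 in Rut-C30 (1.24 ± 0.12). Of 6 glycosyltransferase genes, the family 2 member TrA0066W was higher (2381 and 2758 in Δ*res2*, 1414 and 1212 in Rut-C30, 0.97 ± 0.10) and the family 32 member TrF0192W lower (-0.44 ± 0.13). Of 4 cell wall hydrolase genes, the family 55 member TrF0994W was lower (-0.46 ± 0.11). The enolase gene *eno1* (TrA1058C), of glycolysis, had 49201 and 47628 in Δ*res2* and 29998 and 36451 in Rut-C30 (0.54 ± 0.11). *uga1* (TrD0642C), the GABA transaminase gene, was higher by a log2 fold change of 0.36 ± 0.11. Of 8 transcription factor genes, *pro1* (TrA1632W), a regulator with a zinc cluster, was lower by 0.41 and the bZIP gene TrG0432W by 0.57, both on the log2 scale. None of 4 protease genes was called, at edgeR unadjusted p under 0.05 in 2 of them. The study had likewise listed TrF1026C, TrA0066W and *pro1* for a change in Δ*res2* alone, so the shares of these lists carry no test.

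Altogether 14 of the 106 listed genes were called, 8 higher and 6 lower, which is 13.2% beside 13.9% over all genes tested. Only genes that the study had found differentially expressed between conditions could be paired with a name. The listed genes were thus preselected on these samples, and the 2 shares are not like with like. TrB0334W, *snq2*, TrA1225C, TrF1026C, TrA0066W and *eno1* were called higher under all 11 alternatives within the lactose libraries. The 6 genes called lower, *ept1* and *uga1* each lost their call under at least 1. Without Rut-C30 replicate 1, 7 of these 8 lost it (all but *cel3c*), and without replicate 2 only *cel3c* did. Without Δ*res2* replicate 1 it was 6 (all but *uga1* and TrF0192W), and without replicate 2 it was 7 (all but *pro1*).

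A further 3 listed genes had large differences with a spread too wide for a call. The heat shock gene *hsp30* (TrA1527C) had 2112 and 2861 normalized counts in Δ*res2*, against 519 and 331 in Rut-C30, a log2 fold change of 2.53 ± 0.64 (edgeR adjusted p = 0.081). The hexose transporter gene *hxt13* (TrA0157W) had 8061 and 8577 in Δ*res2* and 1175 and 2956 in Rut-C30 (2.02 ± 0.45, edgeR adjusted p = 0.058). *are2* (TrE0238C), which codes for a sterol O-acyltransferase, had 2087 and 3424 in Δ*res2* and 1081 and 1492 in Rut-C30 (1.10 ± 0.29, edgeR adjusted p = 0.080). In all 3 genes the groups did not overlap, and DESeq2 called each of them, with adjusted p of 0.0011, 0.00014 and 0.0054. Outside the lists, TrA0255W (chromosome I), singled out after its values were seen, had the largest fitted difference of any gene with a mean of 100 or more normalized counts other than *res2*. It had 3688 and 8642 in Δ*res2*, against 196 and 429 in Rut-C30, and at 4.33 ± 0.93 it missed the call (edgeR adjusted p = 0.057).

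The cultures with DTT give a second set of libraries for the same strains. Of the 710 genes called higher in LC, 656 (92.4%) had a positive strain effect in LD, beside 48.6% of all genes tested, and 388 (54.6%) were called higher there, beside 9.82% of all genes tested, and 2 were called lower. Of the 528 called lower in LC, 391 (74.1%) had a negative effect in LD and 71 (13.4%) were called lower, beside 3.48% of all genes tested, while 27 were called higher. Among the genes beyond a log2 fold change of 1, 127 of 161 increases (78.9%) and 6 of 22 decreases (27.3%) were called in the same direction in LD. Of the 12 largest increases, 10 were called in LD, and of the 12 largest decreases 5, with *res2* among them. No library was shared between both strain effects, though the 8 libraries were fitted together.

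**Figure D5:**
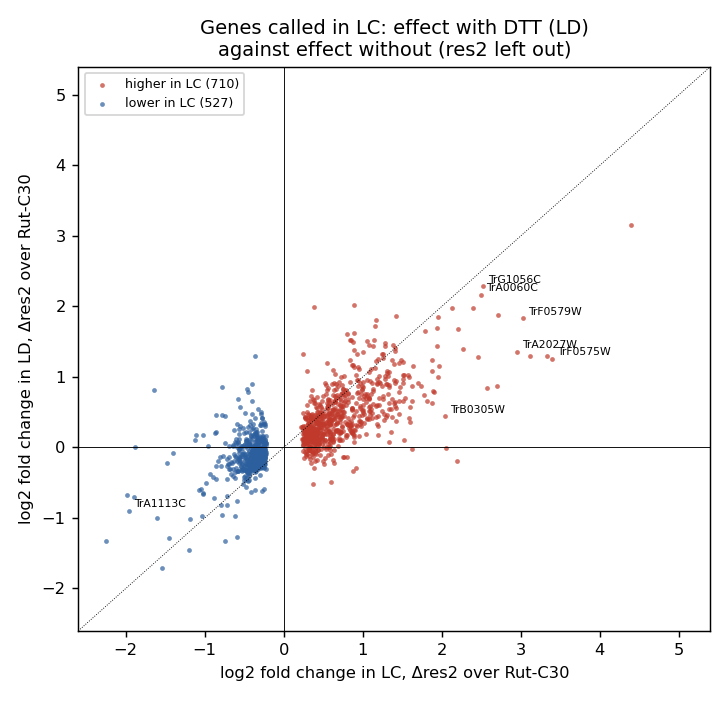
Strain effect in LD (vertical axis) against the strain effect in LC (horizontal axis), both as log2 fold change of Δres2 over Rut-C30, for the 710 genes called higher (red) and the other 527 called lower (blue) in LC, with equality as a dotted line. Red points lie mostly above 0 in LD (656 of 710), and blue points lie more often below 0 than above it (391 of 528 with res2 counted).

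The strain effect differed between LC and LD for 350 genes (3.94% of those tested, edgeR adjusted p under 0.05), 118 with a higher and 232 with a lower value in LC. Among them were genes of ribosome biogenesis, the making of ribosomal RNA and its assembly into ribosomes. The listed genes *gar1*, *nhp2*, *cbf5* and *snu13* code for proteins of snoRNPs, particles that modify ribosomal RNA. All 4 were near 0 in LC, with log2 fold changes between -0.18 and 0.04 and 0 of 4 at an edgeR unadjusted p under 0.05. In LD all 4 were higher in Δ*res2*, with a median of 0.90. For *gar1* (TrB0722W) the normalized counts were 1442 and 1454 in Δ*res2* and 1474 and 1348 in Rut-C30 in LC, and 259 and 290 in Δ*res2* and 124 and 133 in Rut-C30 in LD.

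Of 18 genes that the study annotated with ribosome biogenesis, 0 were higher and 2 (11.1%) lower in LC, beside 7.99% and 5.94% of all genes tested, and 17 were higher in LD, beside 9.82% of all genes. The 2 calls in LC were lost without either Δ*res2* library. The difference between the conditions was called for 13 of the 18, and for 12 to 14 when any LC library was left out. This list and the snoRNP genes were chosen by the study on these samples. *tfIIIA* (TrF0966W), whose product is needed for 5S ribosomal RNA, had -0.31 ± 0.11 in LC, which was not called, and 0.81 in LD (edgeR adjusted p of the difference 0.0017). The endoglucanase gene *cel45a* (TrF0083C), at 0.06 ± 0.12 in LC, was higher by a log2 fold change of 0.82 in LD, and this difference was also called (edgeR adjusted p = 0.018).

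The glucose cultures gave little to set beside these values. Their biological coefficient of variation was 0.494, against 0.0711 in the lactose libraries, and 0 genes were called in either glucose condition, at an edgeR unadjusted p under 0.05 in 112 genes without DTT and 229 with it. Even *res2* was not called there (edgeR adjusted p = 0.12 and 0.067). Of the 161 genes higher by more than a log2 fold change of 1 in LC, 116 had a positive strain effect in glucose without DTT (72.0%, beside 48.4% of all genes) and 105 in glucose with DTT (65.2%, beside 50.8%).

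By the expression clusters that the study defined from these same samples in Rut-C30, cluster 4 had the highest share of genes called higher in LC. Of its 443 genes, 68 (15.3%) were higher and 21 (4.74%) lower in Δ*res2*, beside 7.99% and 5.94% of all genes tested. With 1 library left out, 40 to 113 of them were higher, the lowest count without Δ*res2* replicate 1 and the highest without Rut-C30 replicate 2. Cluster 1, which holds the cellulase genes, had 1 gene higher and 3 lower of 57. In cluster 5, which holds ribosome biogenesis, 26 of 438 genes were higher and 34 lower in LC. Clusters 2 and 3 had 11 higher and 5 lower of 118, and 8 higher and 1 lower of 107. The shares called higher in clusters 2, 3 and 5 (9.32%, 7.48% and 5.94%) lay near that of all genes. Of the processes annotated by the study, lipid biosynthesis had 5 of 21 genes higher and 1 lower (median 0.21), protein transport 3 of 15 higher and none lower (median 0.11), and DNA repair 1 of 21 higher and 4 lower (median -0.10), beside the same shares of all genes and a median of -0.04. Under each process the study listed only genes that it had found differentially expressed in these samples, so the shares carry no test. The counts also moved with single libraries. Without Rut-C30 replicate 1 or either Δ*res2* library, lipid biosynthesis kept 2 genes called higher and protein transport 0, and DNA repair had 1 called lower without Rut-C30 replicate 1 and 0 without either Δ*res2* library. Without Rut-C30 replicate 2 the counts were 10, 6 and 7. Amino acid metabolism and sulfur compound metabolism had 1 gene in each direction, of 35 and 20 genes.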

How the data were processed

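The deposited files hold whole-number counts of reads per gene for each of 16 strand-specific poly(A)+ libraries. Per the labels and the paper's methods, the authors made these counts with STAR 2.7.8a and HTSeq 0.5.3 on the QM6a genome, in single reads. The strand setting of the counting is not given in the sources used here, so reads of overlapping or antisense genes may not be separated. Gene positions came from the deposited annotation, which placed 9847 of 10008 counted genes. Names came from pairing with TRIREDRAFT numbers (1729 genes), and 106 of 112 listed genes were paired, with *hac1* and *cre1* not among them. The pairing was possible only for genes that the study had found differentially expressed in these same samples.

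Groups were taken from the labels. The 8 lactose libraries were fitted with edgeR 4.0.16 (R 4.3.3) by its quasi-likelihood test with robust estimation, TMM factors and the default filter on low counts, which left 8889 genes, and p-values were adjusted by Benjamini-Hochberg over all of these. The contrasts were the strain effect in LC, in LD, and their difference. Each group had 2 replicates, so the fit has 4 residual degrees of freedom per gene, to which edgeR adds information on the spread shared across genes. The p-values measure the spread between these cultures as moderated in this way. Standard errors are the absolute log2 fold change over the square root of the F statistic of that fit. They are not the spread of a gene's own duplicates alone. The 8 glucose libraries were fitted separately (8966 genes). Intervals are 95%. Alternatives were DESeq2 1.42.0, RLE size factors, no filter, the 4 LC or all 16 libraries, a replicate block, no robust estimation, other limits and each LC library left out. TMM factors computed among the LC libraries alone were added after the data had been seen.

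Members and lists were chosen with earlier results of these data known. Named were *res2*, the genes past the study's limits, the 12 largest changes in each direction among called genes averaging 100 or more normalized counts without overlap between the strains, the longest run of neighbours, and the listed genes. Other genes named in the runs and in the closing observations were chosen after their values were seen. Lists by protein name could not be built, since the sources used here pair no protein names with the genes. No sequences are shown.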

Additional observations from a re-analysis of the deposited data

Results flagged for a closer look

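The strain effect of 12 named genes differed between LC and LD by the test of the difference itself (edgeR adjusted p under 0.05), and the value given is the LC effect minus the LD effect on the log2 scale. It was positive for TrF0575W (2.13), TrF0576W (2.05) and TrF0577W (1.82) of the chromosome VI row, for TrA2027W (1.59) and for TrB0305W (1.60). In each of these the increase in Δ*res2* was larger without DTT. It was negative for TrA1113C (-1.06), the neighbour of *res2*, which fell further without DTT. The remaining 6 were the snoRNP genes *gar1* (TrB0722W, -1.06), *nhp2* (TrB1782C, -0.86), *cbf5* (TrD0762C, -1.13) and *snu13* (TrG0592C, -0.85), the endoglucanase gene *cel45a* (TrF0083C, -0.76) and *tfIIIA* (TrF0966W, -1.12). None of these 6 was called in LC, and all were higher in Δ*res2* in LD.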

How the results depend on the processing

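Within the lactose libraries no named gene changed direction with a call. The count of 1238 genes changed in LC was 591 and 575 without Δ*res2* replicate 1 and 2, and 801 and 1656 without Rut-C30 replicate 1 and 2. It was 500 at an adjusted p under 0.005, 183 beyond a log2 fold change of 1 and 2496 at an unadjusted p under 0.05. Leaving out 1 library gave 451 to 926 genes higher, 124 to 730 lower, 10 to 64 lower beyond a log2 fold change of 1, 13 to 23 by the study's limits and 176 to 604 that differed between LC and LD. Where a library was left out, the lone sample of its group was assumed to vary like the other groups. With the 4 LC libraries alone, 217 were lower and 13 lower beyond 1, and DESeq2 called 347 lower. The study's limits with a fold limit of 1 gave 136 genes.

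With all 16 libraries, whose spread includes the glucose cultures, 2 genes were called (*res2* and TrA1041W), 0 higher and 2 lower, both beyond 1. At an unadjusted p under 0.05 there were 131. By the study's limits 1 was left, and 0 differed between LC and LD.

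Replicate numbers did not pair the samples (r of deviations between -0.01 and 0.12). With a replicate block 1335 genes were called in LC, 748 higher and 587 lower, with 13 by the study's limits and 396 that differed between LC and LD.

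Depth was not limiting for abundant genes, but 20 of the 161 larger increases and 9 of the 22 larger decreases had a mean under 100 normalized counts. The number of cultures (2 a group) and the single transformant limit what the strain comparison can carry.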

Other observations

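Several of the most abundant transcripts of the lactose culture were among the increases. Of the called genes, the 15 with the highest level per kb of exon in Δ*res2* were all higher there, beside 57.4% of all called genes. Ranking by the Δ*res2* level itself favours genes that are higher in that strain, so this count carries no test. The choice was also made after their values were seen. TrB1722C (chromosome II) had 260400 and 266922 normalized counts in Δ*res2*, against 121037 and 144365 in Rut-C30, and a log2 fold change of 0.99 ± 0.13. TrA0027W (chromosome I) had 255291 and 254458 in Δ*res2* and 79603 and 97785 in Rut-C30 (1.52 ± 0.13). Per kb of exon, the level of TrB1722C in Δ*res2* was 987495 normalized counts and that of TrA0027W 123846. Neither has a name in the sources used here, and both were also called higher in LD, by log2 fold changes of 0.83 and 1.03.

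In the neighbourhood of TrB1343C, annotated with N-acetylglucosamine metabolism, TrB1340W carries the same annotation and was also higher in LC, with 207 and 161 normalized counts in Δ*res2* and 123 and 80 in Rut-C30 (0.84 ± 0.18) and 1.52 in LD. The LC call of TrB1340W was not kept under every alternative within the lactose libraries. The gene between them, TrB1341C, was not called in LC (-0.05 ± 0.08). Nearby, TrB1337C was called lower in LC (-0.33 ± 0.10, edgeR adjusted p = 0.046), a call that was also not kept under every alternative. *lxr1* (TrE1267W), by its RefSeq symbol an L-xylulose reductase gene, had 5721 and 5744 normalized counts in Δ*res2*, against 1560 and 2219 in Rut-C30. Its log2 fold change was 1.60 ± 0.16 in LC and 0.37 ± 0.15 in LD, and the difference was called (edgeR adjusted p = 0.011). These genes were named after their values were seen.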
